A study of Mus musculus with 30 samples.

Results

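The SLC39 (ZIP) family comprises membrane transporters that move zinc into the cytosol, either across the cell surface or out of organelles. The 10 genes described here are Slc39a1, Slc39a4, Slc39a5, Slc39a6, Slc39a7, Slc39a8, Slc39a9, Slc39a10, Slc39a13 and Slc39a14. They were taken by symbol from the 54232 gene IDs counted in every library, with no threshold on their values. Earlier results of these data were known when they were chosen. RNA was sequenced from pancreatic islets of male wild-type C57BL/6N mice. The groups were islets of mice that received 1 mM CdCl2 for 6 weeks (n = 4) with their vehicle group (n = 5), islets of mice that received it for 18 weeks (n = 5) with their vehicle group (n = 6), and isolated islets cultured for 96 h with 0.5 uM CdCl2 (n = 5) or vehicle (n = 5). No label gives the age of the mice or the route of dosing. Whether the libraries within a group stem from different mice or dishes is not stated, and the p-values therefore rest on the variation among these libraries alone, part of which may be technical.

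Beta cells, the insulin-secreting cells of the islet, pack zinc with insulin in their secretory granules and release it with the hormone, so islets take up zinc continually. ZIP proteins at the cell surface and exporters of the SLC30 family set how much zinc reaches the cytosol and the granules. Cadmium has no known role in mammals and enters cells through carriers of essential metals. Slc39a8 and Slc39a14 are such carriers, known for moving cadmium and manganese as well as zinc, and Slc39a14 also moves iron that is not bound to transferrin. Slc39a4 is the zinc importer of the apical membrane of the intestine, and Slc39a5 lies on the basolateral membrane of polarised cells, among them the acinar cells of the exocrine pancreas in mice. Slc39a1, Slc39a6 and Slc39a10 act mainly at the cell surface, while Slc39a7, Slc39a9 and Slc39a13 are mainly found in the endoplasmic reticulum and Golgi.

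The metal response element (MRE), bound by the zinc-sensing factor MTF1, and the site bound by RBPJ and its acinar relative RBPJL were searched for in the 250 bases before the RefSeq start sites. The start sites and the sequences are those of RefSeq on GRCm38.p6. The MRE core was taken as TGCACNC or TGCGCNC and the RBPJ site as TTTCCCA or TTCCCAC, each on both strands, and the RBPJ words can overlap each other. Of the members, 7 had windows that were used, and Slc39a4, Slc39a6 and Slc39a14 are named only. The first windows of Slc39a5, the member with the largest estimated cadmium difference at 18 weeks, and of Slc39a8, the cadmium carrier with an estimate of more than 1 on the log2 scale there, are shown 5′ to 3′ on the strand of the gene, with a match to the MRE core in capitals. The Slc39a5 window is chr10:128401225-128401474 on the minus strand and the Slc39a8 window chr3:135825029-135825278 on the plus strand.
Slc39a5: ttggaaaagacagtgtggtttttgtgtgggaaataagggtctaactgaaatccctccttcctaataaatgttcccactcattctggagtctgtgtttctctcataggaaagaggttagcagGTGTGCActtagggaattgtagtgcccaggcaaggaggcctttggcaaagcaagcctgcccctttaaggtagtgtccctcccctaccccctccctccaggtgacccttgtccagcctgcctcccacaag
Slc39a8: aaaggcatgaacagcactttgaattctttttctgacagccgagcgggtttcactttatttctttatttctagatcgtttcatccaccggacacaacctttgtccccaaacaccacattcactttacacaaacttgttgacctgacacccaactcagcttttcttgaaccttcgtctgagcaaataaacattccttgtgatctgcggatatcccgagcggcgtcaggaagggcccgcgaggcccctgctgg
The Slc39a5 window held 1 match to the MRE core, on the strand opposite to the gene, at -129 to -123 from the start site. It also held 3 matches to the RBPJ words, at -225 to -219, -224 to -218 and -180 to -174, the first pair of them overlapping. The Slc39a8 window held neither word, and a further, downstream start site of Slc39a8 had 1 match to the MRE core at -19 to -13. The other Slc39a5 window, of a downstream start site, held 1 RBPJ word at -131 to -125. None of the windows of Slc39a1, Slc39a7, Slc39a9, Slc39a10 and Slc39a13 held either word. Of all 32851 windows of this length, 21.4% held the MRE core and 10.6% an RBPJ word, so a match is a description of the letters only.

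Total counts per library were 49953778 to 58366797 with cadmium and 49564350 to 55504925 with vehicle at 6 weeks, 21573301 to 51852364 and 9092759 to 51404595 at 18 weeks, and 24197072 to 26549350 and 24267100 to 26501641 in culture. The low libraries of the 18 week set were cadmium 5 and vehicle 4 and 6. Insulin transcripts marked all libraries as islet, with Ins2 between 58015 and 171178 CPM, the read count per 1000000 counts of a library scaled by TMM. The 33 acinar marker genes fixed for this check took 3.68% to 8.16% of counts with cadmium and 2.71% to 4.99% with vehicle at 6 weeks, and 1.60% to 19.3% with cadmium and 0.257% to 1.79% with vehicle at 18 weeks. In culture they took at most 0.00737% with cadmium and 0.00928% with vehicle.

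Levels of the 10 transcripts were compared with each other as CPM per kilobase of exon. In islets of the 6 week vehicle group Slc39a9 had the highest level at 18.0 CPM per kb, followed by Slc39a6 at 14.7 and Slc39a1 at 10.4. Slc39a13 (8.87), Slc39a7 (6.01), Slc39a5 (5.96), Slc39a10 (4.69) and Slc39a14 (4.14) formed the middle of the order on the same scale. Another annotated transcript on the same strand, Gm20427, covers 80.7% of the Slc39a7 exons, so the place of Slc39a7 is uncertain. The ranges of Slc39a1 and Slc39a13 overlapped, as did those of each neighbouring pair from Slc39a7 down to Slc39a14. Within each of these libraries, though, Slc39a1 stood above Slc39a13 and Slc39a10 above Slc39a14. The order of Slc39a7 and Slc39a5, and of Slc39a5 and Slc39a10, varied between libraries. Slc39a4 and the cadmium carrier Slc39a8 lay far below, at 0.204 and 0.174 CPM per kb, and overlapped each other. Slc39a1 took the top place in the other vehicle groups, with 12.2 CPM per kb at 18 weeks and 16.2 in culture, where its libraries overlapped those of Slc39a6 (11.3 and 15.02). The other known cadmium carrier of the family, Slc39a14, was thus well above Slc39a8 in every group, at 3.33 to 4.37 CPM per kb against 0.112 to 0.320.

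**Figure D1:**
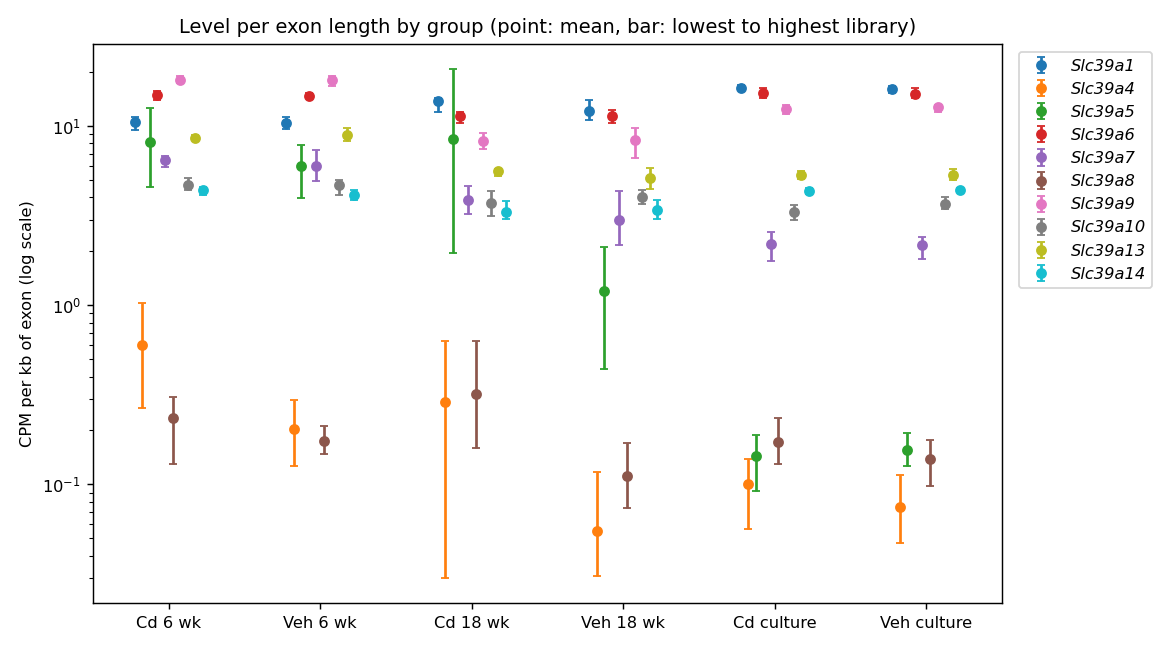
Level of each of the 10 transcripts, as CPM per kilobase of exon on a log axis, in the 6 groups; points are group means and bars run from the lowest to the highest library. Slc39a4 and Slc39a8 lie lowest in vivo, and Slc39a5 joins them in culture, at 0.144 CPM per kb with cadmium and 0.157 with vehicle.

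The summed level of the 10 transcripts was 425 ± 6.37 CPM with cadmium (SD, n = 4) and 414 ± 14.4 CPM with vehicle (SD, n = 5) at 6 weeks. At 18 weeks it was 280 ± 22.2 CPM with cadmium (SD, n = 5) and 256 ± 10.9 CPM with vehicle (SD, n = 6), and Slc39a5 held 18.7 CPM of the first and 2.68 CPM of the second. In culture it was 327 ± 6.59 CPM with cadmium and 331 ± 8.05 CPM with vehicle (SD, n = 5 each).

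Each cadmium group was set against its own vehicle group to ask whether exposure moved these importers. Across the 3 settings 1 member passed the test, Slc39a5, which rose at 18 weeks. The transcripts with the highest CPM in each group, Slc39a9, Slc39a6 and Slc39a14, differed by less than 0.08 on the log2 scale in every setting. Per kilobase of exon Slc39a1 was highest at 18 weeks and in culture. It differed by 0.18 ± 0.08 (SE) at 18 weeks, with an unadjusted p of 0.0365 and an adjusted p of 0.246 from edgeR. At 6 weeks 0 of 10 members passed edgeR's quasi-likelihood test at a Benjamini-Hochberg adjusted p under 0.05, as did 0% of all 18080 genes tested. At an unadjusted p under 0.05 there was 1 of 10, Slc39a4, against 5.11% of all genes, and DESeq2 and limma-voom also called 0 of 10. At 18 weeks 1 of 10 members passed, against 0.359% of 20911 genes, 0.344% in the higher direction. At an unadjusted p under 0.05 it was 5 of 10 (Slc39a1, Slc39a4, Slc39a5, Slc39a7 and Slc39a8), all higher with cadmium, against 10.7% of all genes in that direction. In culture 0 of 9 members passed, against 0.00597% of 16743 genes, with 1 of 9, Slc39a10, at an unadjusted p under 0.05 against 5.49% of all genes, and DESeq2 and limma-voom called 0. In each of the 3 comparisons 0 members had groups that did not overlap, against 1.54%, 1.53% and 0.83% of all genes at 6 weeks, 18 weeks and in culture. The median log2 fold change of the members was 0.05 at 6 weeks, 0.16 at 18 weeks and -0.0016 in culture, against -0.0019, 0.00029 and -0.0021 over all genes tested. In bulk islets, a change in the number of cells of a type and a change in RNA per cell cannot be told apart.

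**Figure D2:**
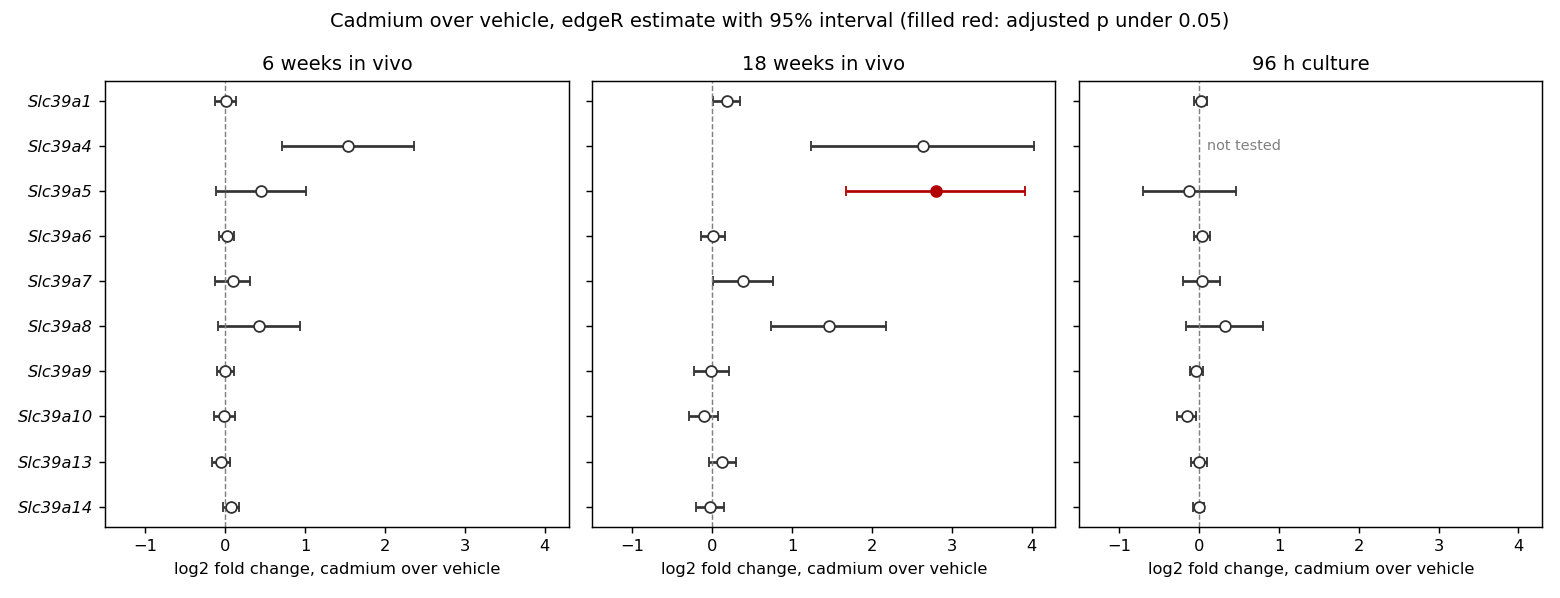
Log2 fold change of cadmium over vehicle with its 95% interval for each member in the 3 settings, from edgeR. The filled red point is Slc39a5 at 18 weeks (2.80), and Slc39a4 in culture was not tested because its counts of 4 to 12 reads fell under the filter.

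Of the cadmium carriers, Slc39a8 had few reads and higher estimates with cadmium, and Slc39a14 had many reads and estimates near 0. Slc39a8 (ENSMUSG00000053897) lies at chr3:135825279-135888572 on the plus strand and Slc39a14 at chr14:70303469-70351425 on the minus strand of GRCm38. At 18 weeks Slc39a8 had 1.65, 1.23, 2.27, 4.87 and 2.25 CPM in the cadmium libraries, against 0.569 (lowest), 0.819 (median) and 1.30 CPM (highest) in the 6 vehicle libraries. All cadmium libraries but replicate 2 lay above every vehicle library, and replicate 4 stood far above the rest. The log2 fold change was 1.46 ± 0.34 (SE) with an unadjusted p of 0.00067 and an adjusted p of 0.0831 from edgeR, so it did not pass. It passed when cadmium library 2 was left out, at 1.64 with an adjusted p of 0.0274 from edgeR, and without cadmium library 4 it was 1.05 with an adjusted p of 0.229. DESeq2 gave 1.47 with an adjusted p of 0.00345, where it called 765 genes in all, and over all alternatives the adjusted p ran from 0.00244 to 0.9995. Divided by the acinar marker share, Slc39a8 came to 0.242 to 0.768 CPM per percentage point with cadmium and 0.691 to 3.01 with vehicle. The CPM is TMM-scaled and the share is of unscaled counts. With the log2 share as a covariate its estimate was -0.017 ± 0.39 (SE). That share was above the vehicle range in every cadmium library but replicate 2, so share and treatment are poorly separated in that fit.

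At 6 weeks Slc39a8 had 1.00, 1.82, 2.35 and 2.03 CPM with cadmium, against 1.22, 1.54, 1.16, 1.14 and 1.62 CPM with vehicle. The groups overlapped, since cadmium library 1 was the lowest of all 9. The log2 fold change was 0.43 ± 0.23 (SE) with a 95% interval of -0.09 to 0.94. In culture it had 0.991, 1.80, 1.16, 1.03 and 1.62 CPM with cadmium, against 0.754, 1.30, 1.10, 1.36 and 0.772 CPM with vehicle, a log2 difference of 0.32 ± 0.23 (SE) with overlapping groups. Over the 6 groups the means ran from 2.45 CPM with cadmium at 18 weeks to 0.859 CPM with vehicle at 18 weeks, and each neighbour in that order overlapped the next.

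Slc39a14 had 31.8, 35.5, 31.8, 36.1 and 40.3 CPM with cadmium at 18 weeks, against 31.9 (lowest), 35.0 (median) and 40.9 CPM (highest) with vehicle. The 2 groups covered nearly the same range. The log2 fold change was -0.03 ± 0.08 (SE), with a 95% interval of -0.20 to 0.15. At 6 weeks it averaged 46.2 ± 2.07 CPM with cadmium (SD, n = 4) and 43.7 ± 2.08 CPM with vehicle (SD, n = 5), a log2 difference of 0.07 with an interval of -0.03 to 0.17. In culture it averaged 45.8 ± 1.58 CPM with cadmium and 46.2 ± 0.851 CPM with vehicle (SD, n = 5 each), a log2 difference of -0.0058 with an interval of -0.08 to 0.07.

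The epithelial importers Slc39a5 and Slc39a4 had the largest estimates of the family in vivo. Slc39a5 (ENSMUSG00000039878, chr10:128395931-128401229, minus strand, GRCm38) lies within the span of Ankrd52 on the opposite strand and shares no exon with it. Slc39a5 had 7.23, 4.37, 20.2, 46.1 and 15.8 CPM with cadmium at 18 weeks, against 0.981 (lowest), 2.24 (median) and 4.73 CPM (highest) with vehicle. It rose by 2.80 ± 0.52 on the log2 scale (SE), with an adjusted p of 0.0376 from edgeR and 4 of 5 cadmium libraries above every vehicle library. The call was lost when vehicle library 1, 3, 4, 5 or 6 was left out (adjusted p from edgeR 0.141, 0.129, 0.0848, 0.111 and 0.127 in that order). It was also lost without cadmium library 3 (0.104) or 4 (0.0786), and without cadmium library 4 the log2 difference was 2.14 ± 0.42. Of the 20 alternative settings tried for this comparison it passed in 8, with adjusted p-values from 7.34e-05 to 0.989.

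Acinar transcripts moved with Slc39a5. At 18 weeks 33 of 33 acinar markers had higher estimates with cadmium, with a median log2 fold change of 3.43. Of these 27 passed the test and 32 had an unadjusted p under 0.05. Duct markers were higher in 11 of 12 (median 1.62), with 1 that passed and 9 at that p. Markers of several other cells had higher estimates too and those of some did not, and 0 passed edgeR's test in each of the next lists. Of the lymphocyte markers 6 of 6 tested were higher (median 2.69, 5 at an unadjusted p under 0.05), of the stellate cell and fibroblast markers 8 of 9 (median 1.18, 6 at that p) and of the macrophage markers 11 of 12 (median 0.42, 9 at that p). Delta and PP cell markers were higher in 4 of 4, endothelial in 5 of 7, beta cell in 5 of 10 and alpha cell in 2 of 6. Erythroid markers were lower in 5 of 5 (median -0.75). Of the defining acinar markers, the proenzymes Cpa1, Ctrb1 and Prss2 were at 183 CPM or more in every in vivo library, and Cpa1 stood at 1418 to 20331 CPM with cadmium and 224 to 1428 CPM with vehicle at 18 weeks. At 6 weeks 33 of 33 acinar markers had higher estimates with cadmium, with a median of 0.63. Of these 0 were called by edgeR and 28 had an unadjusted p under 0.05. Duct markers were higher there in 9 of 12 (2 at that p). Macrophage markers were lower in 12 of 12 (7 at that p), stellate cell and fibroblast markers in 9 of 9 (1) and lymphocyte markers in 6 of 6 tested (1), with 0 called. Divided by the acinar marker share of its library, Slc39a5 came to 2.05 to 2.73 CPM per percentage point with cadmium and 2.64 to 4.28 with vehicle at 18 weeks. The same ratio was 2.77 to 3.42 CPM per percentage point with cadmium and 3.27 to 3.92 with vehicle at 6 weeks. At both times the range of the ratio reached lower with cadmium than with vehicle, and the ranges overlapped. The ratio sets TMM-scaled CPM over a share of unscaled counts. In the 20 in vivo libraries the level itself covered 0.981 to 46.1 CPM. When the log2 acinar share entered the fit, Slc39a5 had an estimate of -0.24 ± 0.22 at 18 weeks and -0.30 ± 0.09 at 6 weeks (SE). The edgeR p was 0.309 and 0.00674 unadjusted and 0.989 and 0.714 adjusted, in that order. At 18 weeks all cadmium libraries but library 2 had a share above the vehicle range, so share and treatment are hard to separate there. The part of these other lists in the rise of Slc39a5 was not tested.

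**Figure D3:**
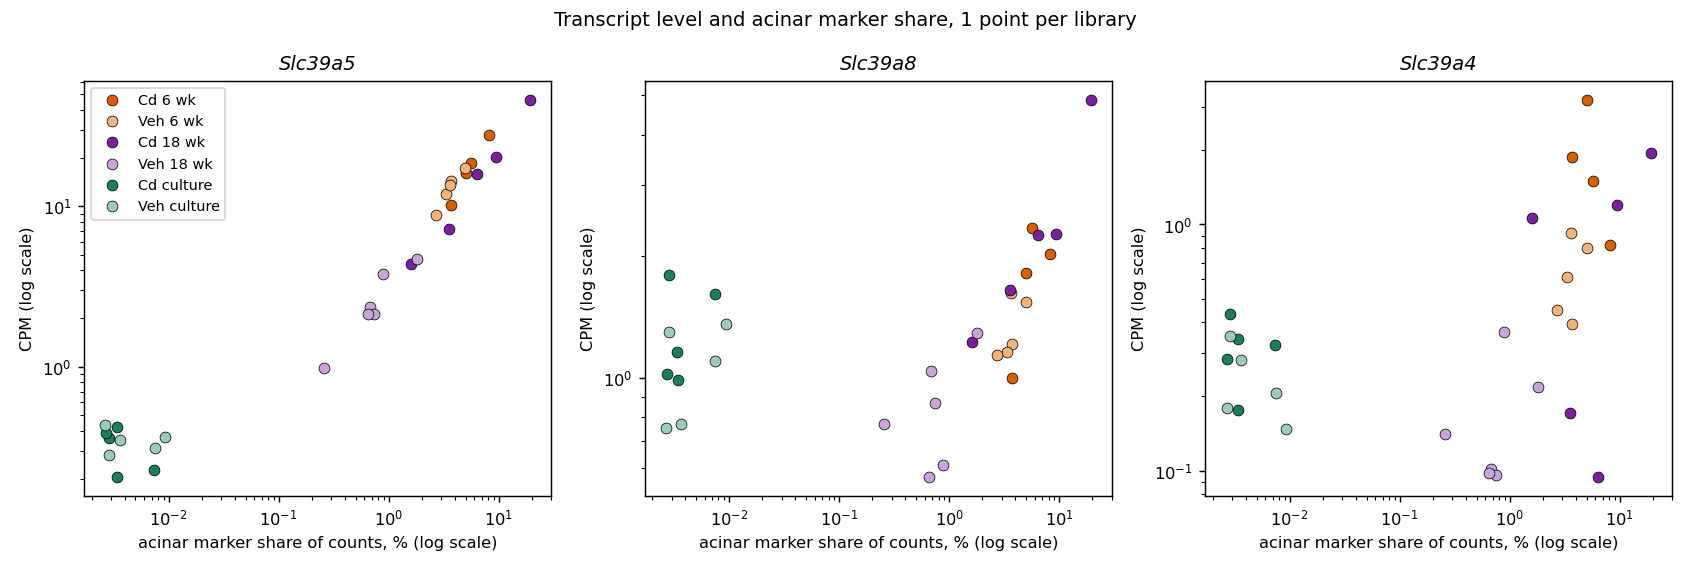
CPM of Slc39a5, Slc39a8 and Slc39a4 against the share of counts taken by the 33 acinar markers, both axes on a log scale, 1 point for each of the 30 libraries. Slc39a5 rises with the share over the in vivo libraries, at 2.05 to 2.73 CPM per percentage point with cadmium and 2.64 to 4.28 with vehicle at 18 weeks. Slc39a4 was at 0.0939 CPM, from 2 reads, in cadmium library 5 of 18 weeks, with a share of 6.39%. It was at 1.95 CPM in cadmium library 4 of 18 weeks, with a share of 19.3%. It was at 3.21 CPM in cadmium library 2 of 6 weeks, with a share of 5.02%.

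At 6 weeks Slc39a5 had 10.2, 16.2, 18.6 and 27.9 CPM with cadmium, against 14.5, 17.4, 12.003, 8.85 and 13.6 CPM with vehicle. The groups overlapped, and the log2 difference was 0.45 ± 0.26 (SE) with an interval of -0.11 to 1.02. In culture, where acinar markers were almost gone, Slc39a5 was at 0.205 to 0.422 CPM with cadmium and 0.282 to 0.431 CPM with vehicle, from 6 to 12 reads a library. Over the groups its means ran from 18.7 CPM with cadmium at 18 weeks and 18.2 CPM with cadmium at 6 weeks, through 13.3 and 2.68 CPM in the vehicle groups of 6 and 18 weeks, to 0.32 and 0.348 CPM in culture with cadmium and vehicle. The 3 highest overlapped their neighbours, and the 18 week vehicle libraries overlapped neither the 6 week vehicle libraries nor the culture libraries.

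Slc39a4 (ENSMUSG00000063354, chr15:76612383-76617384, minus strand, GRCm38) rested on few reads in every group, at most 157 in a library. At 6 weeks it had 1.88, 3.21, 1.502 and 0.825 CPM with cadmium, against 0.393, 0.802, 0.610, 0.451 and 0.919 CPM with vehicle. Cadmium libraries 1, 2 and 3 lay above every vehicle library and library 4 among them. The log2 difference was 1.54 ± 0.37 (SE), with an unadjusted p of 0.0018 and an adjusted p of 0.919 from edgeR, and it ranged from 1.14 to 1.78 over all alternative settings. Given the acinar share as a covariate it was 1.74 ± 0.47, a larger estimate than without it.

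At 18 weeks Slc39a4 had 0.172, 1.06, 1.205, 1.95 and 0.0939 CPM with cadmium, against 0.0963 (lowest), 0.121 (median) and 0.366 CPM (highest) with vehicle. Of the cadmium libraries, 3 lay above every vehicle library, 1 among them and 1 below them all. The acinar shares of cadmium libraries 1 to 5 were 3.53%, 1.60%, 9.37%, 19.3% and 6.39%. Library 4, with the highest share, had the highest level, and library 5, the lowest, rested on 2 reads. The log2 difference was 2.64 ± 0.65 (SE) with an adjusted p of 0.0996 from edgeR, from 2 to 73 reads a library with cadmium and 2 to 12 with vehicle. It passed when cadmium library 1 or 5 was left out (adjusted p 0.0397 and 0.0361 from edgeR), and over all alternatives the adjusted p ran from 0.00252 to 0.989. Given the acinar share as a covariate it was 1.65 ± 0.90. In culture it was not tested in the comparison of those groups, with 0.176 to 0.431 CPM under cadmium and 0.147 to 0.352 CPM under vehicle.

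**Figure D4:**
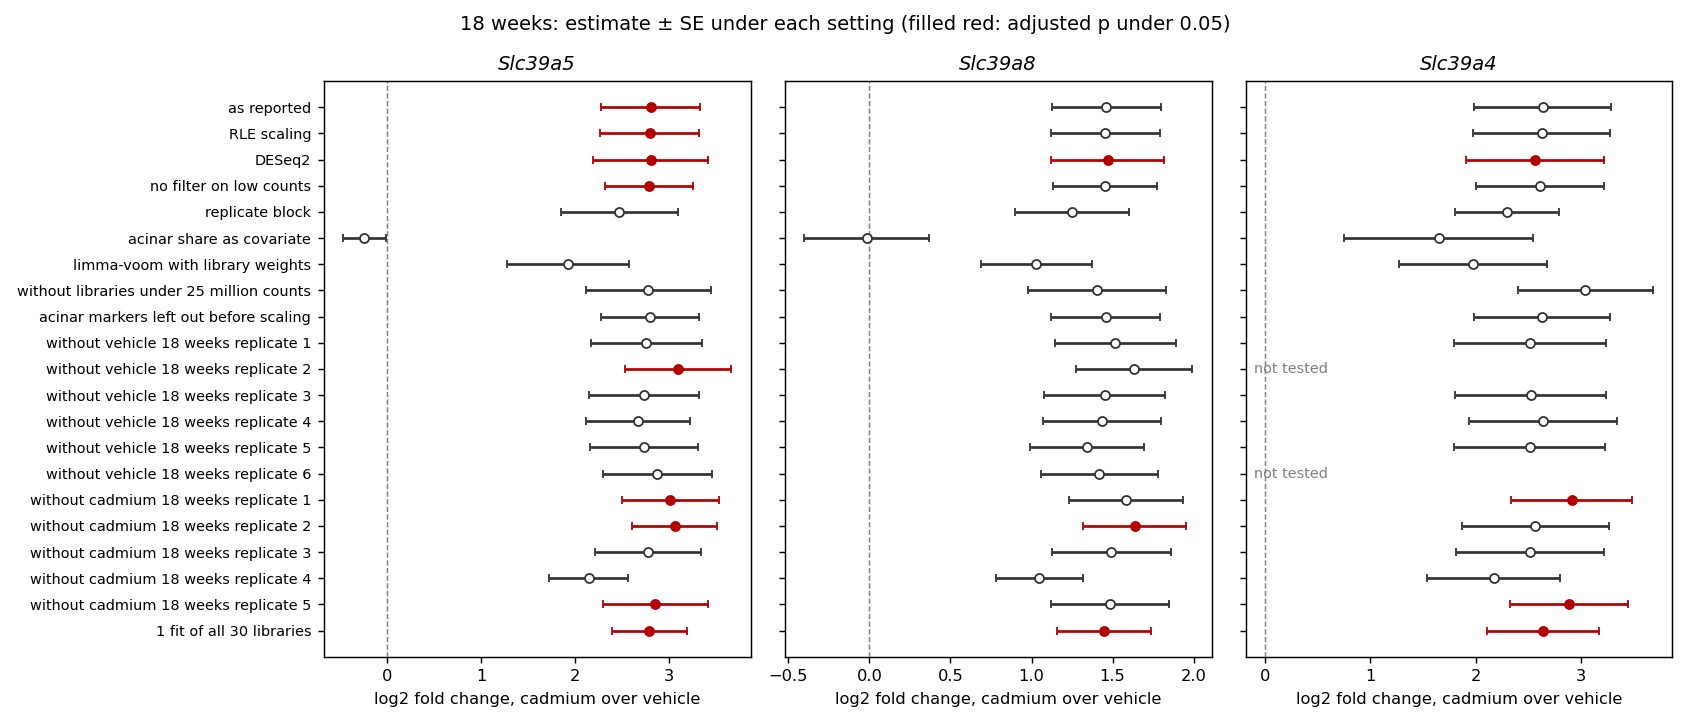
Log2 fold change of cadmium over vehicle at 18 weeks with its SE for Slc39a5, Slc39a8 and Slc39a4 under the setting reported and 20 alternatives; filled red marks an adjusted p under 0.05. Slc39a5 is filled under the setting reported and 8 alternatives, and its estimate falls to -0.24 only where the acinar share is a covariate.

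The importers of the cell surface that most cells use, Slc39a1, Slc39a6 and Slc39a10, did not pass edgeR's test in the fit of each cadmium comparison on its own groups. Slc39a1 had 34.1, 33.2, 33.6, 33.9 and 28.3 CPM with cadmium at 18 weeks, against 25.5 (lowest), 28.7 (median) and 32.9 CPM (highest) with vehicle. Cadmium libraries 1 to 4 lay above every vehicle library and library 5 near the vehicle median. The log2 difference was 0.18 ± 0.08 (SE), with an unadjusted p of 0.0365 and an adjusted p of 0.246 from edgeR, and its estimate with the acinar share as a covariate was 0.29 ± 0.14. It passed in 1 of 20 alternatives, 1 fit of all 30 libraries (0.18 ± 0.06, adjusted p 0.0444 from edgeR), and over all of them the adjusted p ran from 0.0444 to 0.989. At 6 weeks Slc39a1 averaged 24.9 ± 1.71 CPM with cadmium (SD, n = 4) and 24.7 ± 1.57 CPM with vehicle (SD, n = 5), and in culture 38.6 ± 1.14 and 38.2 ± 1.55 CPM (SD, n = 5 each).

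Slc39a10, which forms a complex with Slc39a6, had 22.2, 20.2, 20.1, 19.8 and 18.3 CPM with cadmium in culture, against 22.9, 21.3, 22.9, 21.0 and 24.4 CPM with vehicle. Cadmium libraries 2 to 5 lay below every vehicle library and library 1 among them. The log2 difference was -0.16 ± 0.06 (SE), with an unadjusted p of 0.0165 and an adjusted p of 0.888 from edgeR, and it stayed between -0.19 and -0.12 over all alternative settings. At 18 weeks the difference was -0.11 ± 0.09 and at 6 weeks -0.01 ± 0.06 (SE), both with intervals that spanned 0. Slc39a6 averaged 46.3 ± 2.66 CPM with cadmium (SD, n = 5) and 46.2 ± 3.23 CPM with vehicle (SD, n = 6) at 18 weeks, a log2 difference of 0.01 with an interval of -0.14 to 0.16. Its differences were 0.02 ± 0.04 at 6 weeks and 0.03 ± 0.05 in culture (SE).

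Of the organelle importers, Slc39a7, which releases zinc from the endoplasmic reticulum, had 9.78, 8.38, 11.5, 11.9 and 8.45 CPM with cadmium at 18 weeks, against 5.603 (lowest), 7.32 (median) and 11.2 CPM (highest) with vehicle. The groups overlapped, with 2 of 5 cadmium libraries above every vehicle library. The log2 difference was 0.39 ± 0.18 (SE), with an unadjusted p of 0.0445 and an adjusted p of 0.264 from edgeR. An annotated transcript on the same strand, Gm20427, covers 80.7% of the Slc39a7 exons, and no label says how reads in shared exons were counted, so the level of Slc39a7 is uncertain. At 6 weeks Slc39a7 averaged 16.6 ± 0.94 CPM with cadmium (SD, n = 4) and 15.5 ± 2.33 CPM with vehicle (SD, n = 5), and in culture 5.69 ± 0.82 and 5.59 ± 0.563 CPM (SD, n = 5 each), log2 differences of 0.09 ± 0.10 and 0.03 ± 0.11 (SE). Gm20427 itself was at most 0.241 CPM with cadmium and 0.122 CPM with vehicle at 18 weeks.

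Slc39a9, a zinc importer of the Golgi and cell surface and the most abundant member by reads, averaged 83.6 ± 6.41 CPM with cadmium (SD, n = 5) and 84.4 ± 12.1 CPM with vehicle (SD, n = 6) at 18 weeks. Its log2 difference was -0.0083 with an interval of -0.22 to 0.20, and the 6 week and culture differences were 0.0022 ± 0.05 and -0.04 ± 0.04 (SE). Slc39a13, the Golgi importer whose loss disturbs connective tissue, had 25.5, 27.8, 26.8, 27.7 and 28.0 CPM with cadmium at 18 weeks, within the vehicle range of 21.6 to 28.5 CPM. The log2 difference was 0.13 ± 0.08 at 18 weeks, -0.05 ± 0.05 at 6 weeks and -0.0016 ± 0.05 in culture (SE). Small parts of the exons of Slc39a9 (4.52%) and Slc39a13 (4.42%) lie opposite exons of Erh and Psmc3, and without a stated strand setting those reads cannot be told apart.

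**Figure D5:**
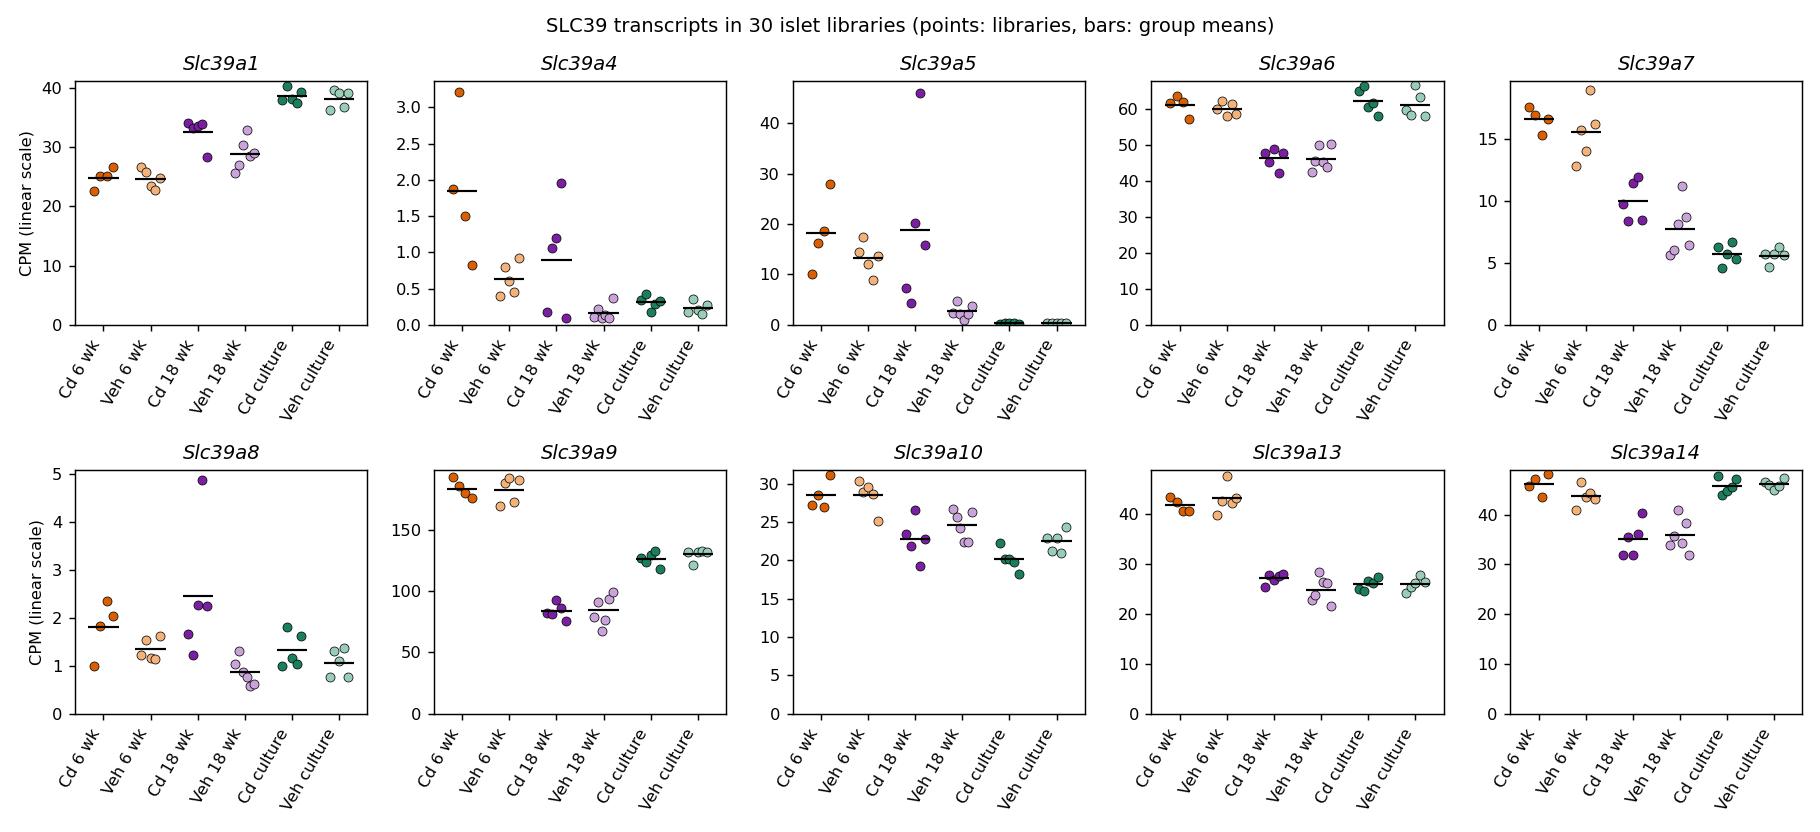
CPM of the 10 transcripts in all 30 libraries on linear axes from 0, with cadmium (Cd) left of vehicle (Veh) in each setting; points are libraries and bars group means. Relative to the mean, the in vivo spread is widest for Slc39a4, Slc39a5 and Slc39a8, and Slc39a9 is near 184 CPM at 6 weeks and near 84 CPM at 18 weeks in both treatments.

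The spread between libraries of a group was widest, relative to the mean, for the 3 members with the largest estimates. At 18 weeks the coefficient of variation was 88.4% with cadmium and 50.1% with vehicle for Slc39a5, 86.5% and 62.8% for Slc39a4, and 57.9% and 31.99% for Slc39a8. Slc39a7 came next, with 16.6% with cadmium and 27.3% with vehicle, the second value close to that of Slc39a8. For the other 6 members it was 3.89% to 11.6% with cadmium and 6.996% to 14.4% with vehicle. The 95% intervals of the log2 difference at 18 weeks ran from 1.68 to 3.92 for Slc39a5, 1.24 to 4.03 for Slc39a4 and 0.741 to 2.18 for Slc39a8.

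The cadmium effect itself was compared between settings in 1 fit of the 30 libraries. It was larger at 18 than at 6 weeks for Slc39a5, by 2.33 ± 0.56 on the log2 scale (SE, adjusted p 0.0352 from edgeR), which made 1 of 10 members called against 1.68% of 22721 genes. The call was lost without vehicle library 1, 2 or 3 or cadmium library 1, 2 or 3 of 6 weeks, without vehicle library 1, 3 or 6 of 18 weeks, or without cadmium library 3 or 4 of 18 weeks. Over those libraries the adjusted p ran from 0.0532 to 0.101 by edgeR, and without cadmium library 4 of 18 weeks the difference was 1.66 ± 0.46, and over all alternatives the adjusted p ran from 0.00747 to 0.101. Acinar markers differed the same way, with 33 of 33 higher, 19 called and a median of 2.79. Macrophage markers were higher in 12 of 12 (4 called, median 0.996) and lymphocyte markers in 8 of 8 (0 called, 3.06). Duct markers were higher in 10 of 12 (1 called, 1.23) and stellate cell and fibroblast markers in 8 of 9 (0 called, 1.47). Endothelial markers were higher in 5 of 7, beta cell in 4 of 10, alpha cell in 3 of 6 and erythroid in 2 of 5, with 0 called. The part of each list in the difference for Slc39a5 was not tested. For Slc39a8 the difference of 18 minus 6 weeks was 1.014 ± 0.42 (adjusted p 0.161) and for Slc39a4 1.10 ± 0.70 (adjusted p 0.377, both from edgeR). Of the 10 members 0 were called by edgeR for culture minus 6 weeks, where 0% of all genes were, and 0 for culture minus 18 weeks, where 0.0176% of all genes were. At an unadjusted p under 0.05 there were 0 members in the first, against 3.34% of genes, and 3 in the second, against 13.2%. Those 3 did not pass, with differences of -2.23 ± 0.81 for Slc39a4, -2.91 ± 0.95 for Slc39a5 and -1.13 ± 0.42 for Slc39a8 (SE, adjusted p 0.244, 0.210 and 0.259 from edgeR). Slc39a4 had too few reads for a test within the culture groups alone. DESeq2 called 0 members in the first and 1, Slc39a5, in the second.

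Levels also differed between the settings apart from cadmium, in which time, processing and depth go together and cannot be told apart. In vehicle islets of 18 against 6 weeks 10 of 10 members were called, 9 lower and Slc39a1 higher, beside 71.8% of 20551 genes called in all, 35.9% lower and 35.9% higher. Slc39a9 averaged 84.4 ± 12.1 CPM at 18 weeks (SD, n = 6) and 183 ± 10.7 CPM at 6 weeks (SD, n = 5), and fell by 1.15 on the log2 scale. Erh, whose exons lie opposite part of its own, rose by 3.21 in the same comparison, with 13.5 ± 1.22 CPM at 18 weeks (SD, n = 6) and 1.42 ± 0.224 CPM at 6 weeks (SD, n = 5), and its part in the reads of Slc39a9 was not tested. Slc39a5 fell by 2.33 and Slc39a4 by 2.15, Slc39a7 fell by 1.06 and Slc39a13 by 0.83, while Slc39a1 rose by 0.19 ± 0.08 (adjusted p 0.0378 from edgeR). Gm20427, which shares exons with Slc39a7, fell by 3.67, and its part in the reads of Slc39a7 was not tested. Acinar markers fell too, 32 of 33 with a median of -2.06, as did 12 of 12 macrophage markers (median -1.74), 8 of 9 stellate cell and fibroblast markers (-2.15), 10 of 12 duct markers (-1.70), 4 of 6 lymphocyte markers (-1.70) and 5 of 7 endothelial markers (-0.53). Of the islet cell markers 5 of 10 beta, 3 of 6 alpha and 3 of 4 delta and PP fell, while 1 beta marker rose. Erythroid markers went the other way, with 3 of 5 called higher (median 1.69). With the log2 acinar share as a covariate, 4 members stayed called, Slc39a6 (-0.37), Slc39a7 (-1.79), Slc39a9 (-0.91) and Slc39a13 (-0.96). The other 6 calls were lost, with Slc39a5 at -0.49 ± 0.27 and Slc39a4 at -0.96 ± 0.80 (SE, adjusted p 0.154 and 0.356 from edgeR). The share separates these groups completely, at 0.257% to 1.79% at 18 weeks and 2.71% to 4.99% at 6 weeks. A kept or lost call therefore cannot part acinar content from setting. Over all alternatives the adjusted p ran from 3.28e-10 to 0.154 for Slc39a5 and from 6.72e-06 to 0.356 for Slc39a4. The groups did not overlap for 6 of 10 members, against 53.3% of all genes. The call for Slc39a1 was lost without vehicle library 3, 4 or 5 of 6 weeks (adjusted p 0.123, 0.0663 and 0.0542) or 4 of 18 weeks (0.0504), all from edgeR. That for Slc39a8 (-0.62 ± 0.23) was lost without vehicle library 2 or 5 of 6 weeks (0.0606 and 0.0624) or 3, 5 or 6 of 18 weeks (0.0585, 0.0768 and 0.0561), by the same test. Over all alternatives the adjusted p ran from 0.00145 to 0.881 for Slc39a1 and from 0.00674 to 0.8435 for Slc39a8.

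Cultured against freshly isolated vehicle islets of 6 weeks, 8 of 10 members were called, 6 lower and 2 higher, beside 67.8% of 17605 genes, 34.8% lower and 33% higher. The groups did not overlap for 7 of 10 members, against 53.3% of all genes. Slc39a5 fell by 5.21 on the log2 scale, to 0.348 ± 0.057 CPM in culture, against 13.3 ± 3.16 CPM at 6 weeks (SD, n = 5 each). All 33 acinar markers fell in the same comparison, with a median of -10.15, and at least 1 library of each culture group listed Cpa1 at 0. Endothelial markers fell in 7 of 7 (median -3.78) and erythroid markers in 5 of 5 (-9.14). So did 9 of 12 duct, 7 of 12 macrophage, 4 of 6 lymphocyte and 6 of 10 beta cell markers, with 1, 2, 0 and 1 rising in that order. Of the stellate cell and fibroblast markers 5 of 9 rose and 2 fell, and of the alpha cell markers 3 of 6 rose and 1 fell. Slc39a1 rose by 0.66 ± 0.05, to 38.2 ± 1.55 CPM in culture, against 24.7 ± 1.57 CPM at 6 weeks (SD, n = 5 each), with all culture libraries above all 6 week libraries. Slc39a14 rose by 0.11 ± 0.04 (adjusted p 0.0241 from edgeR), a call lost without culture vehicle library 1, 2 or 5 (0.0564, 0.0528 and 0.0622), with a range of 0.0046 to 0.992 over all alternatives. Erh rose by 4.64 here, to 34.9 ± 0.627 CPM in culture, against 1.42 ± 0.224 CPM at 6 weeks (SD, n = 5 each), while Slc39a9 fell by 0.46. With the acinar share as a covariate 0 members were called by edgeR (1, Slc39a6, at an unadjusted p under 0.05), and that share separates the culture and 6 week groups completely. Slc39a6 and Slc39a8 were not called, at 0.06 ± 0.04 and -0.31 ± 0.20.

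The other genes of zinc and metal handling gave 1 call in the 3 cadmium comparisons. Among the other SLC39 genes 0 of 3 tested passed edgeR's test at 6 weeks, at 18 weeks or in culture, with 0, 2 and 0 at an unadjusted p under 0.05. The pair at 18 weeks was Slc39a11, a Golgi zinc transporter, at 0.38 ± 0.13 and Slc39a3, a surface importer, at 0.21 ± 0.07 on the log2 scale (SE). Of the SLC30 exporters, which carry zinc out of the cytosol, 0 of 8 passed at 6 weeks, 0 of 7 at 18 weeks and 0 of 7 in culture, with 0, 1 and 1 at an unadjusted p under 0.05. Slc30a5 and Slc30a7, which load zinc into the secretory pathway, differed by -0.18 ± 0.08 and -0.20 ± 0.09 at 18 weeks (unadjusted p 0.0477 and 0.054). Slc30a1, the exporter of the cell surface and a target of MTF1, had a log2 difference of 0.16 ± 0.05 in culture (unadjusted p 0.003, adjusted p 0.888 from edgeR). Slc30a8, the exporter that fills insulin granules, differed by 0.08 ± 0.07 at 6 weeks, -0.11 ± 0.11 at 18 weeks and -0.04 ± 0.04 in culture.

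For Slc30a2, a vesicular zinc exporter that acinar cells also use, the cadmium effect was larger at 18 than at 6 weeks by 2.37 ± 0.63 (adjusted p 0.0495 from edgeR). It averaged 0.367 ± 0.25 CPM with cadmium (SD, n = 5) and 0.0641 ± 0.0424 CPM with vehicle (SD, n = 6) at 18 weeks, under the filter of that comparison. Of the metal response genes, the metallothionein Mt1 rose in culture by 0.63 ± 0.07 (adjusted p 0.00386 from edgeR), 1 of 4 tested. It averaged 279 ± 23.4 CPM with cadmium and 181 ± 19.4 CPM with vehicle there (SD, n = 5 each), and the groups did not overlap. Of that list 0 of 4 passed edgeR's test at 6 and at 18 weeks, with 0 and 2 at an unadjusted p under 0.05. Those 2 were Mt1 at 0.84 ± 0.25 and Mt2 at 1.09 ± 0.28 at 18 weeks (adjusted p 0.142 and 0.1035). Of the other metal ion importers 0 of 6 passed edgeR's test in any of the 3 comparisons, with 3, 4 and 0 at an unadjusted p under 0.05 at 6 weeks, at 18 weeks and in culture, in both directions. Over all genes those shares were 5.11%, 18.2% and 5.49%. The calcium channel Trpv6 was at 1.197 ± 0.32 at 6 weeks and 1.74 ± 0.47 at 18 weeks (unadjusted p 0.00359 and 0.00244). Slc11a2, an importer of iron and other divalent metals, was at 0.23 ± 0.08 at 18 weeks. Slc11a1, its relative in phagocytes, was at -0.67 ± 0.30 at 6 weeks and 0.51 ± 0.20 at 18 weeks (unadjusted p 0.0494 and 0.0216). The transferrin receptor Tfrc was at 0.26 ± 0.11 at 6 weeks and the channel kinase Trpm7 at -0.21 ± 0.09 at 18 weeks (unadjusted p 0.0455 and 0.0353). DESeq2 and limma-voom counts were not taken for these lists.

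The genes whose libraries varied most like each member, once the mean of its group was taken out, were found over 30 libraries among 15582 other protein-coding genes, by Pearson's r of log2 CPM. These values describe libraries that share depth and tissue makeup and carry no test. Among the genes nearest to Slc39a5 were the acinar enzymes Cela1 (0.931) and Amy2a5 (0.927), and reads of Amy2a5 can be shared among near-identical amylase copies. Slc39a8 was nearest to Nr5a2 (0.818), a nuclear receptor of acinar cells, then Galk1 (0.786) and Ggh (0.783). Slc39a4 was nearest to Myof (0.837), Ildr2 (0.827) and Plekhs1 (0.807), and none of the 3 is an acinar marker of the list used. Slc39a14 was nearest to Tctn3 (0.816), Phf1 (0.805) and 4931406P16Rik (0.776), and Slc39a10 to Ireb2 (0.717), Papola (0.702) and Nup160 (0.686). The top genes for the remaining members were Kat6a for Slc39a9 (0.836), Tmem219 for Slc39a7 (0.819), Cyfip1 for Slc39a1 (0.791), Ccdc84 for Slc39a13 (0.782) and Uggt1 for Slc39a6 (0.735).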

How the data were processed

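The authors deposited 1 table of raw read counts per Ensembl gene for each of the 30 libraries, with no normalization. Per the submitters' processing notes, cutadapt 1.13, STAR, HTSeq 0.6.1p1, DESeq2 and the build mm10 were used upstream, and islets were purified on a density gradient before Trizol extraction per the labels' protocols. The annotation release, the strand setting and the treatment of reads with several matches have no mention in the sources used here. Of the 54232 IDs 54079 matched a symbol, and the other 153 made up 0.0172% or less of each library.

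Each comparison was fitted over all genes on its own groups with edgeR 4.0.16 in R 4.3.3 (quasi-likelihood test, filterByExpr with a minimum count of 10 and a minimum total of 15, TMM scaling), and differences of cadmium effects as contrasts in 1 fit of the 6 groups. A gene was called at a Benjamini-Hochberg adjusted p below 0.05. SEs were derived from the F statistics, and intervals cover 95%. CPM levels are on 1 TMM scaling of the 30 libraries, and exon lengths and positions come from GENCODE on GRCm38. DESeq2 1.42.0, limma 3.58.1 (voom with library weights), RLE scaling, no filter, the replicate number as a block, the log2 acinar share as a covariate, libraries of at least 25000000 counts, 1 fit of the 30 libraries and each library left out were alternatives. Leaving the acinar markers out before scaling was added after the data were seen. The fits were tested on simulated data. Among 61 pairs of libraries within groups 0 were identical, and the lowest chi-square per degree of freedom was 3.03.

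The members and lists were chosen with earlier results of these data known. Named were the 10 members, of each further list the genes that passed or the 2 of smallest p in a comparison (printed for those nearest the threshold), and for each member the 3 protein-coding genes with the highest correlation of log2 CPM (prior count 2), of which all 3 are printed for 4 members and 1 of those for Slc39a5 is not reported here. Slc30a8 was named in all 3 comparisons for its role, and Slc30a2 for its call, after their values were seen.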

Additional observations from a re-analysis of the deposited data

Results flagged for a closer look

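Of the 60 sets of values, each 1 member in 1 group, 3 held a library set apart from the others by Dixon's criterion, and chance alone would mark about 1 in 20. Slc39a8 was high in cadmium library 4 of 18 weeks, at 4.87 CPM against 1.23 to 2.27 CPM in the other cadmium libraries, and that library also had the highest acinar marker share, 19.3% of counts. Slc39a1 was low in cadmium library 5 of 18 weeks, at 28.3 CPM against 33.2 to 34.1 CPM in the others, and that library had the lowest total of its group, 21573301 counts. Slc39a9 was low in vehicle library 2 of the culture, at 122 CPM against 132 to 133 CPM in the others.

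The cadmium effect on Slc39a5 differed between 18 and 6 weeks by 2.33 on the log2 scale in a direct test (adjusted p 0.0352 from edgeR). The acinar marker share differed in the same way, 1.60% to 19.3% of counts with cadmium and 0.257% to 1.79% with vehicle at 18 weeks, and 3.68% to 8.16% with cadmium and 2.71% to 4.99% with vehicle at 6 weeks. The difference was also higher for 12 of 12 macrophage, 8 of 8 lymphocyte and 10 of 12 duct markers. It was higher for 4 of 10 beta cell and 3 of 6 alpha cell markers.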

How the results depend on the processing

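At 18 weeks the count of members called with cadmium was 1, and 3 with DESeq2 (Slc39a4, Slc39a5 and Slc39a8), 4 (Slc39a1, Slc39a4, Slc39a5 and Slc39a8) in 1 fit of all 30 libraries, and 0 with the acinar share as a covariate, limma-voom, libraries of at least 25000000 counts, or acinar markers left out before scaling (edgeR adjusted p 0.0534 for Slc39a5 there). Genes called in all were 75, and 765, 2496, 0, 0, 0 and 0 in those settings, and 140 with no filter. Leaving out 1 library gave 0 to 2 members and 0 to 318 genes at 18 weeks, 0 to 0 members at 6 weeks and in culture, 8 to 10 for vehicle 18 against 6 weeks and 7 to 8 for vehicle culture against 6 weeks. For the effect of 18 minus 6 weeks it gave 0 to 1 members and 0 to 1694 genes, where 382 genes were called as reported, 1385 with DESeq2 and 192 with no filter. That count was 2 (Slc39a1 and Slc39a5) without the 18 week libraries under 25000000 counts, where 2546 genes were called. For culture minus 18 weeks the count was 0 as reported, 1 with DESeq2 and 2 (Slc39a1 and Slc39a4) without the 18 week libraries under 25000000 counts. Genes called in all were 4, 196 and 1057 in that order, and 0 to 358 with 1 library left out. With the acinar share as a covariate 4 members (9045 genes) were called for vehicle 18 against 6 weeks and 0 (229 genes) for vehicle culture against 6 weeks. The share separates the groups completely in both of those comparisons. Estimates changed sign by more than 1 SE of the main value in 7 cases, all with that covariate. These were Slc39a1 (-0.12), Slc39a5 (-0.30) and Slc39a8 (-0.018) at 6 weeks, Slc39a5 (-0.24) and Slc39a8 (-0.017) at 18 weeks, and Slc39a8 for vehicle 18 weeks (0.12) and vehicle culture (2.42) against 6 weeks. The cause was not tested. A replicate block gave 0 members at 18 weeks (Slc39a5 2.47, adjusted p 0.166 from edgeR; 1 gene in all) and 0 for 18 minus 6 weeks (170 genes), and in culture 0 members with 223 genes called, against 1 gene without the block and 7 with no filter. The block gave 9 members for vehicle 18 against 6 weeks (without Slc39a1) and changed no other count of members. DESeq2 called 11 genes at 6 weeks and 3 for culture minus 6 weeks, against 0 and 0. Numbers were shared by groups, and same-numbered libraries correlated by -0.02 to 0.11 at 6 weeks, -0.11 to 0.26 at 18 weeks and 0.02 to 0.14 in culture. They were not taken as pairs, but correlations this low cannot exclude pairing. In culture all of them were positive, and the block changed the genes called most there among the cadmium comparisons. Slc39a4 was under the filter in the culture comparison or without vehicle library 2 or 6 of 18 weeks, and its 2 to 12 reads a library in 18 week vehicle islets limit what can be seen.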
